A study of Mus musculus with 23 samples.

Results

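The genes described here make, move and receive GABA, the main inhibitory transmitter of the adult brain. They are 26 genes chosen by name from the 55335 genes of a count table of the mouse hippocampus: 9 subunits of the GABA-A receptor, 2 subunits of the GABA-B receptor, 6 genes of GABA synthesis, transport and breakdown, 4 genes of the inhibitory postsynapse, 2 chloride transporters and 3 genes of inhibitory interneurons. Names define the set, though earlier results of these data were known when it was chosen. All 26 passed the filter on low counts in every comparison.

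GABA is made from glutamate by glutamic acid decarboxylase, loaded into vesicles and released by interneurons. It opens the GABA-A receptor, a chloride channel whose mix of subunits sets its location and pharmacology, and it acts more slowly through the GABA-B receptor, which couples to G proteins. Chloride transporters set whether the channel inhibits, and scaffold proteins hold the receptors opposite the terminals. In the hippocampus interneurons pace the firing of the pyramidal and granule neurons.

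Hippocampi of female mice were sequenced in 23 libraries, 1 per mouse, to ask how an Alzheimer's disease model differs from controls and whether the model changes when SCD is blocked, the desaturase that turns saturated into monounsaturated fatty acids. The 3xTg mice carry human APP and tau transgenes (APPSwe and tauP301L in the label) on a B6;129 background, and the WT mice are labelled C57BL/6J x 129S1. Untreated mice of 8 months gave 4 WT (WT-8M) and 4 3xTg (3xTg-8M) libraries. Mice of 10 months had a cannula in the lateral ventricle and a pump for 28 days that delivered 0.8% DMSO in artificial cerebrospinal fluid, either alone as vehicle (WT-D and 3xTg-D, 4 libraries each) or with 80 µM of the SCD inhibitor (WT-S, 3 libraries, and 3xTg-S, 4 libraries). The transgenes are driven by a neuronal Thy1.2 element, so the model is one of transgene expression in neurons. The strain comparison holds every allele of the model and any difference in genetic background together, and these cannot be told apart. Whole tissue was measured, so fewer cells of a type and less RNA per cell cannot be told apart either.

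Gene counts per library ran from 12.8M to 36.7M, and no replicates were identical. Markers of interneurons, dentate granule and CA pyramidal neurons were detected in all groups. In 3xTg-8M replicate 4 and 3xTg-S replicate 2, long transcripts stood low against short ones. This was measured as the slope of the log2 level, relative to each gene's mean, on log2 transcript length, which was -0.130 and -0.0990 there and between -0.0400 and 0.0521 in the other 21 libraries. The same 2 libraries and WT-S replicate 2 held the highest sums of choroid plexus markers, 371, 261 and 375 CPM (counts scaled to the total gene count of the library), against 34.7 to 135 in the rest.

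The levels of the 26 genes were first set in order per length, as CPM divided by the exon length in kilobases (RPKM). Gabbr1, the subunit of the GABA-B receptor that binds GABA, stood first with a median of 86.6 RPKM over the 23 libraries. Gabra5, the alpha subunit of extrasynaptic receptors of pyramidal cells, followed with 78.6 RPKM, and Gabarap, a small protein that carries receptors to the membrane and takes part in autophagy, with 69.5 RPKM. Slc12a5, the neuronal chloride exporter KCC2, had 55.0 RPKM and Gad1, the decarboxylase GAD67, had 53.0 RPKM. The lowest levels were those of Gabrg1 (4.34 RPKM), the interneuron transcription factors Dlx1 (3.60 RPKM) and Lhx6 (3.27 RPKM), and Gabrg3 (2.13 RPKM).

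The ranges over libraries overlapped for all neighbouring pairs in this order except Slc32a1 over Slc12a2 (16.8 RPKM against 9.24 RPKM at the nearest libraries) and Lhx6 over Gabrg3. These ranges pool the libraries and do not compare 2 genes within a library. Gabarap, for example, stood above Slc12a5 in each library, though its lowest value was 59.0 RPKM and the highest of Slc12a5 59.7 RPKM. The order was nearly the same in the 6 groups. Gabbr1, Gabra5 and Gabarap held ranks 1, 2 and 3 in each group, and Slc12a2, Gabrg1, Dlx1, Lhx6 and Gabrg3 also had the same rank in each group. Gabra2 was the gene that moved most, from rank 19 to rank 6.

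**Figure D1:**
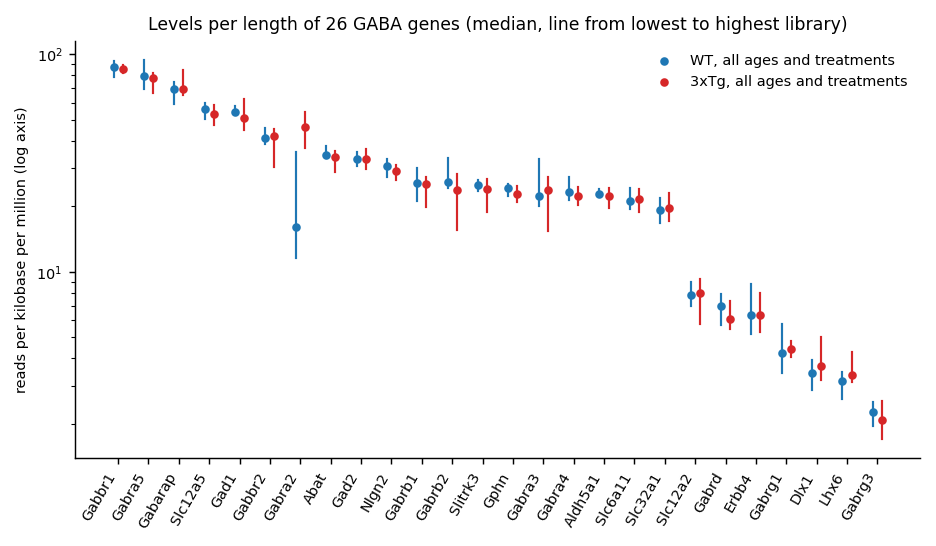
Level per length of each of the 26 genes on a log axis, in RPKM, with the median as a point and a line from the lowest to the highest library, for the 11 WT (blue) and 12 3xTg (red) libraries. The WT and 3xTg lines overlap for every gene except Gabra2, whose WT libraries reach 35.5 and whose 3xTg libraries start at 36.9.

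Gabra2 encodes the alpha 2 subunit of the GABA-A receptor, which is known at synapses on the axon initial segment and in the response to anxiolytic benzodiazepines. It was higher in 3xTg than in WT hippocampus at both ages and under both infusions, by 2.25-fold to 3.28-fold. It was the only one of the 26 genes called in any comparison, where called means an adjusted p under 0.05 in edgeR's quasi-likelihood test, adjusted by Benjamini-Hochberg over all genes tested.

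At 8 months, Gabra2 stood at 131, 271, 134 and 127 CPM in WT-8M and at 359, 372, 378 and 376 CPM in 3xTg-8M. All 4 3xTg libraries lay above all 4 WT libraries, and WT-8M replicate 2 lay between the other WT and the 3xTg libraries. The log2 fold change was 1.17 (SE 0.21, edgeR's quasi-likelihood test, adjusted p = 0.0119). Without WT-8M replicate 2 it was 1.51 (SE 0.06). Of all genes tested in this comparison, 2.58% were called.

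Under vehicle at 10 months, Gabra2 stood at 115, 205, 123 and 98.5 CPM in WT-D and at 416, 378, 282 and 328 CPM in 3xTg-D. The groups again did not overlap, and 1 WT library, WT-D replicate 2, was the highest of its group by a wide margin. For Gabra2 this was 1.36 on the log2 scale (SE 0.19, adjusted p = 0.00295 in edgeR's test), and 1.63 (SE 0.13) without that library. Here 1.39% of all genes were called.

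Under the inhibitor, Gabra2 stood at 105, 111 and 88.6 CPM in WT-S and at 340, 347, 323 and 325 CPM in 3xTg-S. Both groups were narrow and far apart. This gave a log2 difference of 1.71 (SE 0.08, adjusted p = 1.36e-06 in edgeR's test), and Gabra2 ranked 1 of 15664 genes by p-value where 1.32% were called. The strain comparisons at 8 months, under vehicle and under the inhibitor share no library.

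Over both infusions at 10 months, with treatment as a term of the fit, the strain difference was 1.52 on the log2 scale (SE 0.13, adjusted p = 2.13e-07, edgeR's quasi-likelihood test), a fold of 2.87, where 6.53% of all genes were called. When 3xTg-S was set against WT-D it was 1.29 (SE 0.17, adjusted p = 0.00116), where 2.29% were called. Gabra2 was called under every alternative run for these 5 comparisons, with log2 fold changes from 1.06 to 1.79.

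The size of the strain difference was also compared between settings. Between 8 months and 10 months under vehicle it differed by -0.19 on the log2 scale (SE 0.32, adjusted p = 0.859), and between inhibitor and vehicle by 0.35 (SE 0.25, adjusted p = 1), both tests of the interaction in edgeR. Neither passed. The first value turned with single WT libraries, from -0.46 without WT-D replicate 2 to 0.15 without WT-8M replicate 2, and the second was 0.09 without WT-D replicate 2. Within 3xTg mice, Gabra2 differed between inhibitor and vehicle by -0.08 (SE 0.10, adjusted p = 0.768). Of all genes, 0.0621% were called in the first of these tests and 0.0% in the second.

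**Figure D2:**
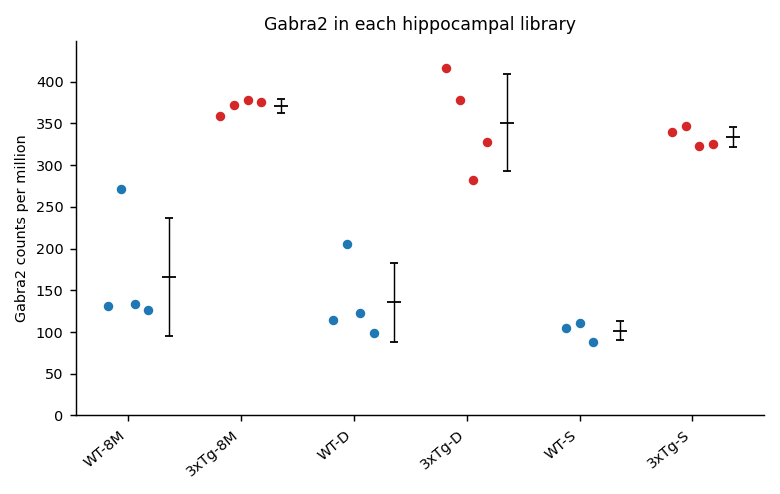
Gabra2 in CPM in each library of the 6 groups (blue, WT; red, 3xTg), with the mean and SD of each group as a black bar. All 12 3xTg libraries lie between 282 and 416, and 9 of 11 WT libraries between 88.6 and 134, with WT-D replicate 2 at 205 and WT-8M replicate 2 at 271.

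Among the 4 alpha subunits described here, the share of Gabra2 in their summed RPKM was 11.8% ± 3.88 (SD, n = 4) in WT-D and 27.0% ± 2.67 (SD, n = 4) in 3xTg-D. At 8 months it was 14.5% ± 4.79 in WT-8M and 28.9% ± 0.58 in 3xTg-8M (n = 4 each). It was 9.38% ± 0.94 (n = 3) in WT-S and 26.2% ± 0.71 (n = 4) in 3xTg-S. Gabra5 held the largest share in each group, from 44.3% in 3xTg-8M to 58.7% in WT-S on average. The share of Gabra5, Gabra3 or Gabra4 falls by construction where Gabra2 is higher, and alpha subunits outside the 26 genes are not in this sum.

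Gabra2 lies on the minus strand of chromosome 5, at 70957597 to 71095849 of GRCm38, in a cluster with 3 other members. Gabrg1 lies 115 kb away on one side, and Gabra4 and Gabrb1, which start head to head, lie 474 kb and 562 kb away on the other. None of these neighbours was called. For the strain difference over both infusions at 10 months, the log2 fold changes were 0.15 for Gabrg1 (SE 0.06, adjusted p = 0.174, and 0.06 with a trend on transcript length and GC content removed), -0.08 for Gabra4 (SE 0.05, adjusted p = 0.467) and 0.03 for Gabrb1 (SE 0.06, adjusted p = 0.833), all from edgeR's test. The start regions of Gabra4 and Gabrb1 overlap on opposite strands, and it is not given whether counting used strand, so reads of that overlap cannot be assigned.

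The promoters of the 4 genes of the cluster are shown because 1 of the genes was called between strains and 3 were not. Each is the RefSeq window of 250 bases before to 50 bases after a start site, on GRCm38.p6, written 5′ to 3′ on the strand of the gene. Capitals mark the GC box GGGCGG or its complement CCGCCC. The windows are chr5:70842568-70842867 (minus strand), chr5:71095800-71096099 (minus strand), chr5:71658259-71658558 (minus strand) and chr5:71657671-71657970 (plus strand), in this order:
Gabrg1: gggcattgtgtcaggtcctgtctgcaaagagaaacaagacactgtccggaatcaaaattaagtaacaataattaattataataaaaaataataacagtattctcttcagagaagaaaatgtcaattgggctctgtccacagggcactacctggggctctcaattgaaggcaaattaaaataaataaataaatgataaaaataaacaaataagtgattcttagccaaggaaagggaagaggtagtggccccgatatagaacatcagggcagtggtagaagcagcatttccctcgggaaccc
Gabra2: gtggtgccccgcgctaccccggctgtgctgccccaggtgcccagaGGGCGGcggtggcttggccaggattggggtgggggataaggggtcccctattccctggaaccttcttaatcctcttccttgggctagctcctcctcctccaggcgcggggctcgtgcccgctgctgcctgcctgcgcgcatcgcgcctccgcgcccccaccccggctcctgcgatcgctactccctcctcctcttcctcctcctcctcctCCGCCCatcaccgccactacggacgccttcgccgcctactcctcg
Gabra4: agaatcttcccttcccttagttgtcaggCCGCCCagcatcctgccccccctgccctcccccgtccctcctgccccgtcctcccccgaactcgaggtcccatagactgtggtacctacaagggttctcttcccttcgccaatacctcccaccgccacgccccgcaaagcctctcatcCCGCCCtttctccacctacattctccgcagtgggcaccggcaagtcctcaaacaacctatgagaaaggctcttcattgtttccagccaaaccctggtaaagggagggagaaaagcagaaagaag
Gabrb1: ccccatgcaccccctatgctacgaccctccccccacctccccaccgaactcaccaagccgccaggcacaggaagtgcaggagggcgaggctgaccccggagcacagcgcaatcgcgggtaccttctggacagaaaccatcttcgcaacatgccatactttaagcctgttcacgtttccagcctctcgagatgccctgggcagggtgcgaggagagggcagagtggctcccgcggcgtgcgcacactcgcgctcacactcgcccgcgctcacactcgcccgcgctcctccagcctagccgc
The Gabra2 window held 2 GC boxes, the Gabra4 window held 2, and the Gabrg1 and Gabrb1 windows held none. Of 32851 mouse promoter windows of the same length, 35.7% held at least 1 on either strand. Neither the TATA box TATAAA (13.6% of all windows), the cAMP response element TGACGTCA (1.79%) nor the palindromic NRF-1 motif (0.971%) was in any of the 4 windows on either strand. These matches describe letters in the windows and no binding. The Gabra2 and Gabrb1 windows held 25 CG dinucleotides each, a number reached by 18.4% of all windows, Gabra4 held 12, and Gabrg1 held 3, at or under which 31.4% of windows lay.

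The other 8 GABA-A receptor subunits lay within 0.34 of 0 on the log2 scale in each strain comparison. Gabrd, the delta subunit of extrasynaptic receptors, known in dentate granule cells, stood at 21.4, 20.0, 18.6 and 22.7 CPM in WT-D and at 15.7, 18.1, 17.7 and 16.1 CPM in 3xTg-D. Each 3xTg-D library lay below each WT-D library. Its log2 fold change was -0.30 (SE 0.08, adjusted p = 0.102, edgeR's test) and was not called. In WT-8M the range was 18.1 to 20.7 CPM against 16.1 to 20.4 CPM in 3xTg-8M, and in WT-S 16.5 to 21.8 CPM against 16.8 to 21.0 CPM in 3xTg-S, so these groups overlapped. Summed markers of dentate granule neurons (7 of 7 detected, none at 0) ran from 411 to 455 CPM in 3xTg-D and from 447 to 537 CPM in WT-D, with a small overlap. Where Gabrd overlapped, these sums did not. They were 381 to 459 CPM in 3xTg-8M against 471 to 496 CPM in WT-8M. Under the inhibitor they were 401 to 441 CPM in 3xTg-S against 490 to 512 CPM in WT-S. Their part in the Gabrd values was not tested.

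Gabrb2, the beta subunit of the most common synaptic receptor, had the largest difference at 8 months after Gabra2. It ranged from 155 to 212 CPM in WT-8M and from 101 to 170 CPM in 3xTg-8M, with a log2 difference of -0.34 (SE 0.14, adjusted p = 0.250 in edgeR's test). The groups overlapped, and the lowest library was 3xTg-8M replicate 4, which has the low values of long transcripts. Without it the Gabrb2 value was -0.21. Gabrb1 ranged from 363 to 415 CPM in WT-8M and from 274 to 358 CPM in 3xTg-8M without overlap (log2 fold change -0.18, adjusted p = 0.277). Gabra4, an alpha subunit paired with delta in the dentate gyrus, had -0.15 (adjusted p = 0.271). With a trend on transcript length and GC content removed the value of Gabrb1 was -0.04 and that of Gabra4 was -0.08, and without 3xTg-8M replicate 4 that of Gabrb1 was -0.11.

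Gabra5 had a log2 fold change of -0.18 under vehicle (SE 0.08, adjusted p = 0.366), with 234 to 281 CPM in WT-D and 198 to 245 CPM in 3xTg-D. It was -0.11 without 3xTg-D replicate 3 and -0.12 without WT-D replicate 3. Gabra3, an alpha subunit known in early and monoaminergic circuits, ranged from 60.5 to 130 CPM over all libraries, and Gabrg1, known in glia, from 27.0 to 45.3 CPM. Neither passed in a strain comparison of 2 groups at an unadjusted p under 0.05. The values of Gabrg3 are given with those of the inhibitor comparisons.

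The GABA-B receptor subunits varied little. Gabbr1 ran from 609 to 722 CPM over the 23 libraries and Gabbr2, the subunit that couples to G proteins, from 203 to 307 CPM. Their log2 fold changes in the 10 comparisons stayed between -0.11 and 0.07, and no unadjusted p of edgeR's test was under 0.05 for either.

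The genes of GABA synthesis, transport and breakdown were not called in any comparison. Slc32a1, the vesicular GABA transporter VGAT, stood at 48.1, 46.9, 54.0 and 55.7 CPM in WT-8M and at 61.6, 64.1, 59.1 and 57.5 CPM in 3xTg-8M. All 3xTg-8M libraries were above all WT-8M libraries. The difference was 0.24 on the log2 scale (SE 0.07, adjusted p = 0.0995, edgeR's test), and 0.11 (adjusted p = 0.308) with the length and GC trend removed. Under vehicle it was 0.07 (adjusted p = 0.720) and under the inhibitor -0.14 (adjusted p = 0.549), with overlapping groups both times.

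Gad1 stood at 428, 430, 440 and 407 CPM in WT-D, at 376, 399, 475 and 381 CPM in 3xTg-D, at 419, 411 and 409 CPM in WT-S, and at 369, 395, 344 and 393 CPM in 3xTg-S. All 4 3xTg-S libraries lay below all 7 WT libraries of 10 months, and 3xTg-D did so but for replicate 3, the highest of all. The log2 fold change of 3xTg-S against WT-D was -0.20 (SE 0.06, adjusted p = 0.101), and that of the strain over both infusions was -0.11 (SE 0.05, adjusted p = 0.187), both in edgeR's test. In 3xTg-D replicate 3 the thalamus and habenula markers summed to 208 CPM, the highest of the 15 libraries of 10 months, and the oligodendrocyte markers to 3836 CPM, the lowest of them. Without it the strain value of Gad1 was -0.14 (SE 0.04, adjusted p = 0.0237) and was called. The interneuron marker sum was lower in 3xTg-D, at 649 to 686 CPM, than in WT-D, at 709 to 799 CPM. Under the inhibitor it stood at 697, 801, 677 and 701 CPM in 3xTg-S and at 753, 750 and 799 CPM in WT-S. These groups overlapped only through 3xTg-S replicate 2, which has the low values of long transcripts. The part of these measures in the Gad1 values was not tested.

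The remaining members of this group kept to a narrow range. Slc6a11, the glial GABA transporter GAT-3, ran from 95.6 to 123 CPM over all libraries, Abat, the transaminase that breaks GABA down, from 222 to 293 CPM, and Aldh5a1, which finishes that breakdown, from 112 to 137 CPM. No unadjusted p of edgeR's test was under 0.05 for these 3 genes in any comparison.

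In the inhibitory postsynapse, Nlgn2, the adhesion protein of inhibitory synapses, ranged at 10 months from 164 to 191 CPM with a median of 181 in 7 WT libraries, and from 153 to 178 CPM with a median of 167 in 8 3xTg libraries. The ranges overlapped. The log2 fold change for strain over both infusions was -0.13 (SE 0.04, adjusted p = 0.0527, edgeR's test), just outside the threshold, and it was called in 4 of 20 alternatives. At 8 months it was 0.06 (adjusted p = 0.659). Gphn, the scaffold gephyrin, had -0.10 over both infusions (adjusted p = 0.138).

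Gabarap had no strain difference past an unadjusted p of 0.05 and ran from 109 to 157 CPM, highest in 3xTg-S replicate 2 and 3xTg-8M replicate 4. Slitrk3, an adhesion protein of inhibitory synapses, ran from 91.5 to 130 CPM and was lowest in the same 2 libraries. The 2 genes thus stood at opposite ends in the libraries with low values of long transcripts.

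Of the chloride transporters, Slc12a5 had a strain value of -0.09 on the log2 scale at 10 months (SE 0.04, adjusted p = 0.234, edgeR's test), with 387 to 445 CPM in WT and 356 to 435 CPM in 3xTg. Slc12a2, the chloride importer NKCC1, which is also known in oligodendrocyte lineage and choroid plexus, ran from 63.0 to 101 CPM. Both of those ends were in 3xTg-D. No p of Slc12a2 was under 0.05.

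The interneuron genes gave 1 value near the threshold at 8 months. Dlx1, a homeobox factor of interneuron development, stood at 18.2, 18.4, 19.7 and 18.4 CPM in WT-8M and at 23.2, 25.4, 20.0 and 24.95 CPM in 3xTg-8M. The groups did not overlap, with 3xTg-8M replicate 3 close to the highest WT library. For Dlx1 the difference was 0.33 on the log2 scale (SE 0.08, adjusted p = 0.0661, edgeR's test). It was 0.23 under vehicle (adjusted p = 0.487, and 0.12 without 3xTg-D replicate 3) and -0.03 under the inhibitor (adjusted p = 0.930). An antisense gene overlaps Dlx1, so its counts are uncertain where strand is not used. The interneuron marker sum, 12 of 12 genes detected and none at 0, was 670 to 818 CPM in WT-8M and 698 to 819 CPM in 3xTg-8M.

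Lhx6, a factor of interneurons from the medial ganglionic eminence, had log2 fold changes of 0.14, 0.18 and 0.04 in the strain comparisons at 8 months, under vehicle and under the inhibitor, and no p was under 0.05. Erbb4, the neuregulin receptor that interneurons carry, had -0.10, 0.13 and -0.10.

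Counted together, positive and negative differences were mixed between strains. At 8 months 16 of 26 had a negative and 10 a positive log2 fold change with a median of -0.04, beside 0.01 over all genes, and 5 of 26 had groups that did not overlap, where 11.1% of all genes did (Gabra2, Slc32a1 and Dlx1 higher, Gabrb1 and Gad1 lower in 3xTg-8M). Under vehicle the numbers were again 16 and 10, with a median of -0.03 beside -0.003 and 2 of 26 without overlap (7.28% of all genes). Without 3xTg-D replicate 3 it was 12 negative and 14 positive, and the median was 0.01. Under the inhibitor 20 were negative, with a median of -0.07 beside 0.004 and 5 of 26 without overlap (10.6%). At an unadjusted p under 0.05 stood 6, 3 and 4 members, where 17.4%, 13.1% and 10.6% of all genes did. At an unadjusted p under 0.01 stood 3, 2 and 1 members (6.88%, 4.95% and 4.14% of all genes). For strain over both infusions 8 of 26 members were under 0.05 (19.7% of all genes) and 2 under 0.01 (9.81%). For the change of the strain difference with age none was under either limit (9.57% and 2.19% of all genes), and none was called by edgeR or DESeq2 (0.13% of all genes by DESeq2).

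**Figure D3:**
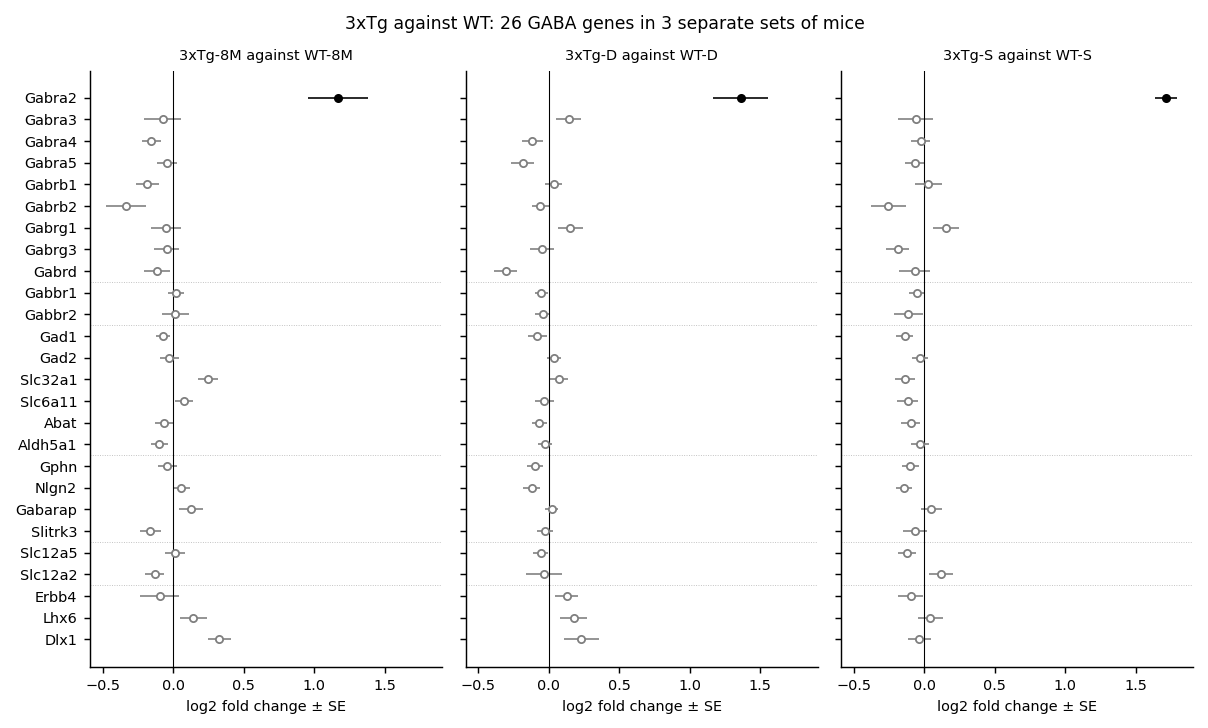
Log2 fold change of 3xTg over WT with its standard error for the 26 genes in the untreated mice of 8 months and in the vehicle and inhibitor mice of 10 months, with dotted lines between functional groups. Filled points are called. Gabra2 stands at 1.17, 1.36 and 1.71, and the others lie between -0.34 and 0.33.

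The inhibitor was compared with vehicle within each strain. No member was called in either strain or over both, and neither was any other gene by edgeR's test (0.0% in each of the 3 comparisons). In 3xTg mice 5 members had an unadjusted p under 0.05, all with lower values in 3xTg-S (11.2% of all genes, 5.51% lower), and 3 were under 0.01 (2.52%). DESeq2's likelihood ratio test called 1 in 3xTg mice, Erbb4, of the 21 members to which it gave an adjusted p, where it called 0.28% of all 4992 genes with one. In WT mice no member had an unadjusted p under 0.05, where 3.42% of all genes did and 0.375% were under 0.01, and DESeq2 called none (0.0% of all genes).

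Erbb4 stood at 88.4, 98.5, 82.8 and 81.4 CPM in 3xTg-D and at 67.8, 70.7, 72.0 and 67.2 CPM in 3xTg-S. All 4 inhibitor libraries lay below all 4 vehicle libraries. On the log2 scale the difference was -0.34 (SE 0.06, adjusted p = 0.378, edgeR's test). Erbb4 lies on chromosome 1 (68032186 to 69108059, minus strand, GRCm38). In WT the same comparison gave -0.12 (SE 0.10, adjusted p = 0.981), and the difference between the strains was -0.22 (SE 0.13, adjusted p = 1).

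Gad2, the decarboxylase GAD65 of nerve terminals, stood at 195, 208, 217 and 202 CPM in 3xTg-D and at 179, 179, 174 and 190 CPM in 3xTg-S. These groups did not overlap either. This was a log2 difference of -0.20 (SE 0.05, adjusted p = 0.378) in edgeR's test. In WT it was -0.12 (SE 0.06), with 187 to 204 CPM in WT-D and 181 to 188 CPM in WT-S. Over both strains it was -0.16 (SE 0.04, adjusted p = 0.241), the smallest p of the members there.

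Gabrg3, a gamma subunit of low level that lies beside Gabra5 on chromosome 7, stood at 27.2, 29.2, 24.9 and 25.4 CPM in 3xTg-D and at 22.2, 22.1, 20.4 and 23.6 CPM in 3xTg-S. The highest 3xTg-S library lay below the lowest 3xTg-D library. The difference came to -0.28 on the log2 scale (SE 0.07, adjusted p = 0.378, edgeR's test), and over both strains -0.21 (SE 0.06, adjusted p = 0.241). WT-D stood at 29.4, 28.5, 27.4 and 24.0 CPM, all above 3xTg-S. That comparison gave -0.33 (SE 0.08, adjusted p = 0.0645), where 8 of 26 members had an unadjusted p under 0.05 (16.9% of all genes) and 7 of these were lower (7.88%). There 3 members were under 0.01 (6.59%), and 4 had groups that did not overlap (10.1%).

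**Figure D4:**
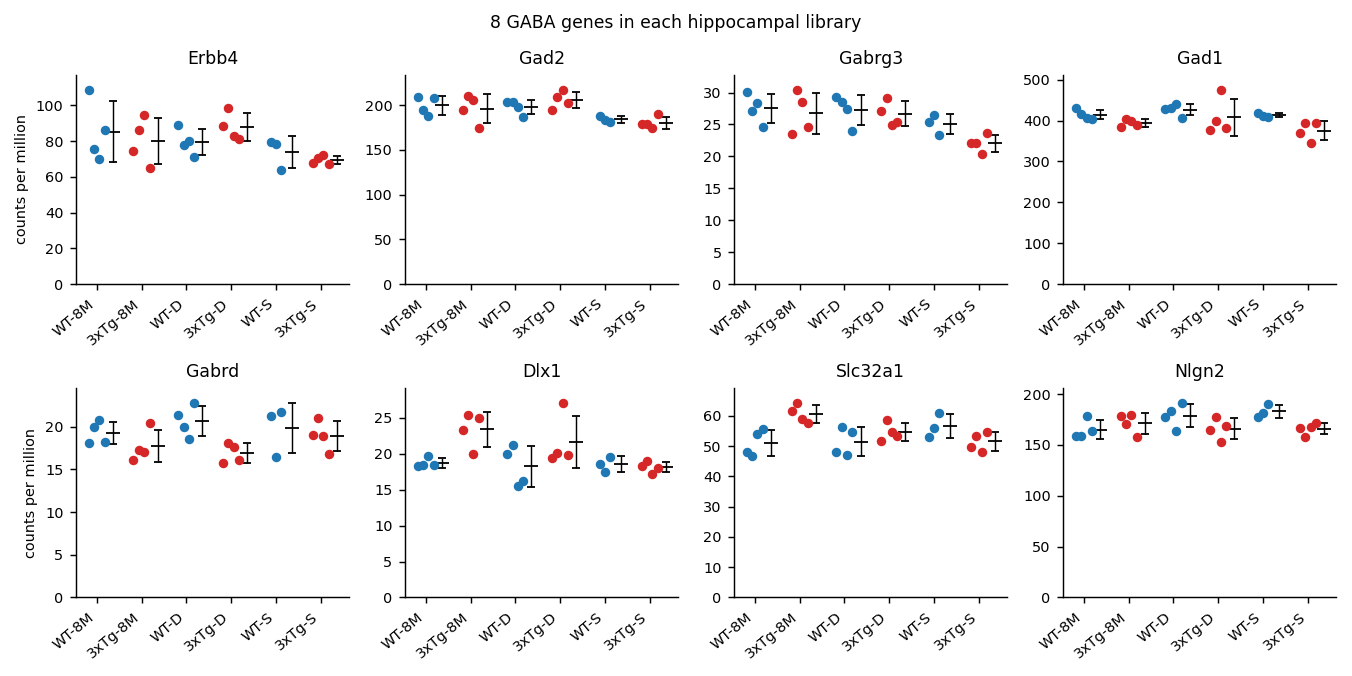
CPM of 8 genes in each library of the 6 groups (blue, WT; red, 3xTg), with the mean and SD of each group as a black bar and axes that start at 0. Erbb4, Gad2 and Gabrg3 lie lower in all 4 3xTg-S than in all 4 3xTg-D libraries, Gabrd lower in 3xTg-D than in WT-D, and Dlx1 and Slc32a1 higher in 3xTg-8M than in WT-8M.

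These 3 values moved with a measure of the libraries. The slope on transcript length was 0.0213 to 0.0482 in 3xTg-D and -0.0990 to 0.000713 in 3xTg-S, without overlap. In WT mice it was 0.00770 to 0.0230 in WT-D and -0.0400 to -0.000699 in WT-S, also without overlap. The slope thus went with the infusion in both strains, and the 2 cannot be told apart. Removal of the trend may therefore also remove a difference between inhibitor and vehicle. When a smooth trend on length and GC content was removed, the log2 fold changes were -0.18 for Erbb4 (SE 0.06), -0.12 for Gad2 (SE 0.04) and -0.15 for Gabrg3 (SE 0.07), each with an adjusted p = 0.844 in edgeR's test. Without 3xTg-S replicate 2, the library of the steepest slope, they were -0.35, -0.19 and -0.28. The interneuron marker sum ran from 677 to 801 CPM in 3xTg-S against 649 to 686 CPM in 3xTg-D, with overlap. The 801 CPM was in 3xTg-S replicate 2, and the other 3xTg-S libraries ran from 677 to 701 CPM. Of all libraries the sum was highest, at 819 CPM, in 3xTg-8M replicate 4, where long transcripts also stood low. It was nearly as high, at 818 CPM, in WT-8M replicate 3, where the slope was -0.0136. WT-D replicate 2 and WT-S replicate 3 each had 799 CPM, with slopes of 0.00959 and -0.0400. The oligodendrocyte sum was 5939 to 6906 CPM in 3xTg-S and 3836 to 6005 CPM in 3xTg-D. The part of the length slope and of cell makeup in these values was not tested beyond the correction above.

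Dlx1 and Gabrb2 were the other members without overlap. The difference for Dlx1 was -0.26 on the log2 scale (SE 0.10, adjusted p = 0.391), which rested in part on 3xTg-D replicate 3 at 27.0 CPM and was -0.14 without it. Gabrb2 had -0.25 (SE 0.11, adjusted p = 0.446), with 99.1 CPM in 3xTg-S replicate 2 and 149 CPM in each of the other 3, and -0.12 without that library. Both were from edgeR's test, and 5 of 26 members had groups that did not overlap here, all lower (6.89% of all genes, 2.75% lower).

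As a group, 20 of 26 members had a negative log2 fold change in 3xTg mice under the inhibitor, with a median of -0.07 beside -0.002 over all genes. With the length and GC trend removed, 12 of 26 were negative and the median was 0.003. Without 3xTg-S replicate 2, 16 were negative, and without 3xTg-D replicate 3, 23 were. The sign of the group's median therefore turned with the correction.

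In WT mice, Gabra2 had the largest difference between inhibitor and vehicle, -0.43 on the log2 scale (SE 0.21, adjusted p = 0.981, edgeR's test). It was -0.17 without WT-D replicate 2, the library that stood high. Gabarap was the only member without overlap, at 116 to 128 CPM in WT-D and 129 to 137 CPM in WT-S (log2 fold change 0.09, adjusted p = 0.981), where 4.94% of all genes did not overlap. Over both strains Gabarap had 0.10 (SE 0.04, adjusted p = 0.290) and Gad1 -0.10 (SE 0.05, adjusted p = 0.367), and 5 of 26 members had an unadjusted p under 0.05 beside 13.6% of all genes, and 3 under 0.01 beside 4.0%. DESeq2 called 1 there, Gad2, of 22 members with an adjusted p, where it called 0.891% of all 6173 genes with one. With the length and GC trend removed the values over both strains were 0.02 for Gabarap, -0.10 for Gad2, -0.12 for Gabrg3 and -0.11 for Erbb4 (-0.24 before). Without 3xTg-D replicate 3 Gad1 had -0.06, and without 3xTg-S replicate 2 Gabarap had 0.06. For the interaction of strain and inhibitor 1 of 26 had an unadjusted p under 0.05, Slc32a1 at -0.21 (adjusted p = 1), beside 2.32% of all genes, none was under 0.01 (0.351%), and neither edgeR nor DESeq2 called any (0.0% of all genes by each).

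**Figure D5:**
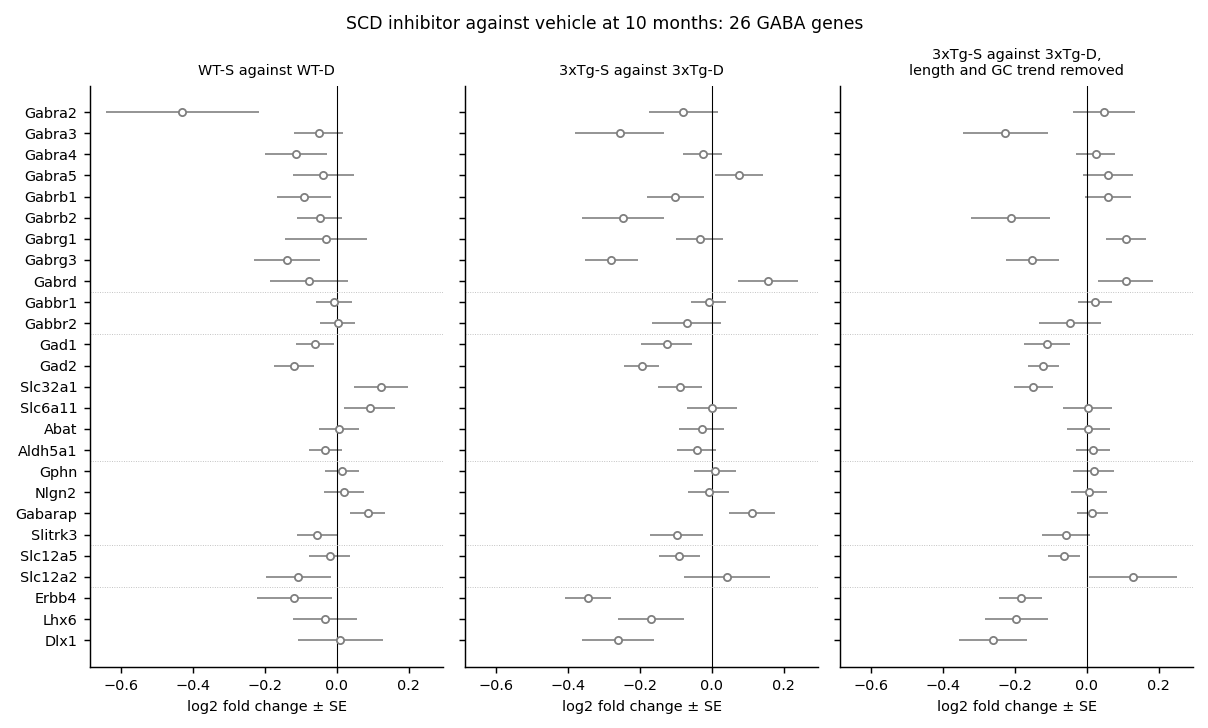
Log2 fold change of inhibitor over vehicle with its standard error for the 26 genes in WT mice, in 3xTg mice, and in 3xTg mice with the trend on transcript length and GC content removed. All points are open since none is called, and 18, 20 and 12 of the 26 points lie below 0 in the 3 panels.

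The wider pathway was read from 67 more genes in 6 lists, of which 62 passed the filter at 8 months and 63 in the other comparisons. These hold the remaining receptor subunits, trafficking proteins, synaptic scaffolds, transporters, chloride regulators and interneuron factors. None was called by edgeR in the 6 comparisons of 2 groups, where 2 to 12 had an unadjusted p under 0.05, beside 3.42% to 17.4% of all genes. DESeq2 called 2 of 63 under vehicle (Dlx6os1 and Nsf), beside 2.49% of all genes. It called none in the 4 comparisons of 2 groups that include inhibitor libraries, where it called 0.28% (3xTg-S against 3xTg-D, with an adjusted p for 41 of the 63), 0.0% (WT-S against WT-D), 1.82% (3xTg-S against WT-S) and 3.71% (3xTg-S against WT-D) of all genes. Its calls at 8 months are not reported here. For strain over both infusions at 10 months edgeR called 3 of 63, beside 6.53% of all genes. DESeq2 called 4 of 63 there, with the same 3 among them, and its share over all genes is not given here. Dlx6os1, a long noncoding RNA antisense to Dlx6 whose counts are uncertain without strand, was higher in 3xTg with a log2 difference of 0.34 (SE 0.07, adjusted p = 0.00593). At 8 months Dlx6os1 had 0.05 (SE 0.08, adjusted p = 0.803), and the change of the strain difference with age was -0.31 (SE 0.12, adjusted p = 0.480). Prox1, the factor of dentate granule cells and of some interneurons, was lower with -0.25 (SE 0.07, adjusted p = 0.0426), and Nsf, the ATPase that takes apart SNARE complexes and binds Gabarap, with -0.13 (SE 0.04, adjusted p = 0.0406), all by edgeR's test. At 8 months Prox1 had -0.20 (adjusted p = 0.373) and Nsf -0.08 (adjusted p = 0.492). Prox1 is itself on the dentate marker list, whose sum ran from 401 to 455 CPM in the 8 3xTg and from 447 to 537 CPM in the 7 WT libraries of 10 months. Its part in the Prox1 values was not tested.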

How the data were processed

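RNA of 23 mouse hippocampi was measured. The authors trimmed single-end reads with Trimmomatic 0.35 and aligned them to GRCm38 with STAR 2.5.1b (submitters' processing notes and the study's methods). The deposited values are raw counts per gene, not normalised, filtered or pooled. Strand setting and removal of duplicate reads are not given in the sources used here. The 4 lines without a gene, 24.7% to 30.9% of reads, were left out, and all value columns were used.

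Pairs of groups were each fitted separately with edgeR 4.0.16 in R 4.3.3 (filterByExpr, TMM, glmQLFit, glmQLFTest), as the study compared its groups pairwise. The 15 libraries of 10 months were fitted with strain and treatment as terms, and interactions in fits of 4 groups. P-values were adjusted by Benjamini-Hochberg over all genes tested and genes with an adjusted p under 0.05 were called. CPM scales counts to the library's gene counts, and RPKM divides it by the summed exon length of Gencode M21 (GRCm38). The scripts were tested on simulated data. Alternatives were DESeq2's size factors, DESeq2 1.42.0 with its likelihood ratio test, no filter, removal of a trend on length and GC (spline of 4 degrees of freedom), 1 fit of all 10-month libraries, animal-number runs as a block, an unadjusted p under 0.01, and each library left out.

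The members and lists were chosen with earlier results of these data known. All members are named. Every library's value is given for members that were called, or whose groups did not overlap with an unadjusted p under 0.01. Other genes are named only if on the 6 pathway lists and called, apart from the genes near Gabra2 in the closing section, which were chosen after their values were seen. DESeq2 leaves genes of low count without an adjusted p in some comparisons, and its shares are over genes with one. Replicate numbers follow accession order and pair no samples. With 3 or 4 mice a group, p-values measure the spread between these mice, and duplicate reads are not independent molecules. Of the 26 members, 23 had a RefSeq promoter window. Some alleles and pathway genes are not reported here.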

Additional observations from a re-analysis of the deposited data

Results flagged for a closer look

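The spread of each member within each group of 4 libraries was examined for a library far from the others, measured as its gap to the nearest library over the range of the group. Of 130 groups 11 stood out, where chance gives about 1 in 20 groups, here 6.5. The 3 highest ratios were Gabrb2 in 3xTg-S replicate 2 (0.989, 99.1 CPM against 149 in the others), Abat in WT-D replicate 2 (0.961, 291 CPM against 264 to 265) and Gabra2 in WT-8M replicate 2 (0.948, 271 CPM against 127 to 134).

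Dlx1 stood out in 3xTg-D replicate 3 (0.903, 27.0 CPM against 19.4 to 20.1) and, by a small amount, in WT-8M replicate 3 (0.857, 19.7 CPM against 18.2 to 18.4). In WT-8M replicate 1, the deepest library and the one with the highest length slope, Gabra3 stood high (0.872, 130 CPM against 85.4 to 91.1), and Slitrk3 (0.868, 116 CPM against 122 to 123) and Gabbr2 (0.853, 259 CPM against 264 to 265) stood low. In 3xTg-8M replicate 4, with the lowest slope, Abat (0.861, 222 CPM against 266 to 273) and Gabrb1 (0.859, 274 CPM against 346 to 358) stood low. Gabra4 stood high in 3xTg-8M replicate 3 (0.841, 136 CPM against 124 to 126). The part of length in these values was not tested.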

How the results depend on the processing

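Gabra2 was called under every alternative in the 5 strain comparisons, and the other counts moved as follows. Counts of called members changed from 1 to 2 with DESeq2's likelihood ratio test at 8 months (Dlx1 added) and to 3 at an unadjusted p under 0.01, and ran from 1 to 2 over the fits without 1 library (2 without 3xTg-8M replicate 3, Dlx1 added). For 3xTg-D against WT-D the count was 2 at an unadjusted p under 0.01 and 1 otherwise. For 3xTg-S against 3xTg-D it went from 0 to 1 with no filter and to 1 with DESeq2's test (Erbb4 both times), and to 3 at an unadjusted p under 0.01. For 3xTg-S against WT-S it went from 1 to 2 with no filter (Gabrb2 added). For 3xTg-S against WT-D it went from 1 to 4 with no filter, 3 with DESeq2's test, 2 with all 10-month libraries in 1 fit and 3 at an unadjusted p under 0.01, and ran from 1 to 2 without 1 library (2 without WT-D replicate 4, Gabrg3 added). For strain over both treatments it went from 1 to 2 with DESeq2's test, 2 with the length and GC trend removed and 2 at an unadjusted p under 0.01 (Nlgn2 added each time), and ran from 1 to 2 without 1 library (Nlgn2 added without WT-D replicate 3 and without 3xTg-D replicate 2, Gad1 without 3xTg-D replicate 3, Gphn without 3xTg-D replicate 4, Gabrd without WT-S replicate 2). For the inhibitor over both strains it went from 0 to 1 with no filter (Erbb4), 1 with DESeq2's test (Gad2) and 3 at an unadjusted p under 0.01. The causes of these shifts were not tested. In the other comparisons no count changed. For the 40 results of single members with an unadjusted p under 0.05, 605 of 625 recomputed values kept direction and side of the threshold, 20 passed it newly and 0 reversed. Over all 260 results, 91 took both signs across the alternatives. Blocking on runs of animal numbers changed no count; samples of 1 run did not deviate together (median correlation 0.00580 over 21 pairs, 0.00256 over 63 other pairs). The labels give no replicate numbers, and no such runs were used at 8 months. Depth limits Lhx6, Dlx1, Gabrd and Gabrg3 most, at 12.5 to 30.4 CPM.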

Other observations

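The surroundings of Gabra2 were read after its values had been seen, so the following is a description. Within 5 Mb on each side of Gabra2, 47 genes were tested for strain over both treatments at 10 months, and 11 were called (23.4%, 7 higher and 4 lower in 3xTg), against 6.53% of all genes. Gabra2, by which the region was chosen, is itself counted in the 47 and in the 11, which leaves 10 other called genes. Gm42732, 2216 kb away, had a smaller p-value than Gabra2 (log2 fold change 0.87, SE 0.07, adjusted p = 3.27e-08 in edgeR's quasi-likelihood test), and Kit, the receptor of stem cell factor, 4479 kb away, was lower in 3xTg (-0.53, SE 0.05, adjusted p = 2.1e-06).

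The 2 WT libraries that stood high in Gabra2 were the nearest of their group to 3xTg in many of these neighbours, though not in all. WT-8M replicate 2 was the WT-8M library nearest to the 3xTg side in 8 of the 10 other called genes, and WT-D replicate 2 was so among WT-D in 7 of 10. In each gene 1 of the 4 libraries of a group is nearest by construction. The counts were made only for these 2 libraries, picked by their Gabra2 values. The share over called genes elsewhere was not computed, so the counts have no background. Gm42732 stood at 26.5, 36.3, 22.8 and 21.5 CPM in WT-8M and at 31.0 to 41.7 CPM in 3xTg-8M. In WT-D it stood at 23.2, 28.3, 24.9 and 19.55 CPM, far from the 40.85 to 44.15 CPM of 3xTg-D. For Kit the nearest WT-D library was replicate 1 at 115 CPM, with replicate 2 at 128.5 CPM and 3xTg-D at 81.5 to 94.4 CPM. Slc30a9, a zinc transporter on the other side of Gabra2, stood at 197, 217, 199 and 192 CPM in WT-8M against 221 to 240 CPM in 3xTg-8M, and at 197, 218, 205 and 200 CPM in WT-D against 220 to 240 CPM in 3xTg-D. C330024D21Rik stood at 0 to 0.145 CPM in 9 WT libraries, at 1.14 CPM in WT-8M replicate 2 and 0.872 CPM in WT-D replicate 2, and at 0.156 to 1.05 CPM in 3xTg-8M. These genes share a chromosome region, and the genotype of the mice there was not analysed here. C57BL/6J is known, as background, for a lower brain level of Gabra2 than other inbred strains.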
